A study of Drosophila melanogaster with 24 samples.

Results

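The Tweedle genes encode a family of insect cuticle proteins, and 10 of them were followed here across the genital discs of Drosophila melanogaster: TwdlT, TwdlM, TwdlP, TwdlB, TwdlL, TwdlO, TwdlN, TwdlD, TwdlF and TwdlG. They were taken by name, as the genes with a probe set assigned to that symbol alone in the platform annotation. Each of the 10 had 1 probe set. They make up 10 of the 25 Tweedle genes measured, which include Tb (Tubby), and 10 of the 11982 genes tested.

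Insect cuticle is built outside the epidermis from chitin fibres and a changing set of proteins, and a new cuticle is laid down at each moult. Tweedle proteins are secreted by cuticle-forming epithelia and carry a conserved domain thought to bind chitin. The family was named from a dominant TwdlD mutant with a short, stout body, and dominant mutations of Tb give the same kind of shape. The genital disc is the imaginal disc from which the adult genitalia and analia are made, and it passes from larval to prepupal to pupal life in the interval sampled.

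Total RNA from dissected discs was hybridised to Affymetrix arrays, 1 array per sample, in 6 groups of 4 biological replicates. The groups were female and male discs at L3 (wandering third-instar larvae), P6 and P20. P6 discs were collected when the bubble in the puparium was at its largest, about 6 h after puparium formation (APF). P20 discs were collected when GFP first showed in the eye disc, about 20 h APF. Animals of all 6 groups, with no untreated or wild-type comparison group, carried esgGAL4.B, UAS-GFP.nls/CyO, a GAL4 driver and a nuclear GFP reporter over a balancer chromosome, which marks imaginal discs, and were reared at 25 C. The labels do not say whether discs of several animals went into 1 sample.

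The values are log2 RMA summaries, deposited by the authors, and a difference of 1 is a 2-fold difference in signal. Replicate arrays correlated at 0.964 to 0.994 over all genes. Of 9 genital disc markers 8 were measured (dsx, en, hh, ptc, Dll, cad, lz and Dr), and their mean level lay between 8.10 and 9.14 on every array. That mean hides opposite sex differences. Group means of lz were 9.31 to 10.68 in females and 3.52 to 4.65 in males. Those of Dr were 4.48 to 6.37 in females and 10.34 to 11.04 in males. The mean of 7 hemocyte markers was 8.30 to 9.83 at L3 and 6.32 to 7.24 at P6 and P20, and that of 5 of 8 muscle markers was 6.30 to 8.43 at L3 and 5.01 to 5.83 later. The mean of 3 of 6 fat body markers lay between 8.77 and 12.69 on all arrays. The mean of 7 testis markers was 3.54 to 4.77 in L3 females and 3.94 to 6.77 in L3 males. It was 3.99 to 5.09 in P6 females against 5.68 to 8.08 in P6 males, and 3.74 to 3.85 in P20 females against 5.38 to 7.21 in P20 males. The mean of 6 of 6 salivary gland markers lay between 3.59 and 6.31. That of 2 of 5 trachea markers lay between 7.93 and 9.48, and that of 4 of 5 neuron markers between 5.36 and 6.25. Single markers could lie outside the range of their mean. Group means of the 2 trachea markers were 3.94 to 6.51 for btl and 12.04 to 12.76 for Gasp. Those of the neuron marker elav were 7.45 to 8.92.

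No detection calls were at hand. As a reading of signal without transcript, 7 Y-linked genes, which female flies lack, read 2.36 to 4.53 on the 12 female arrays, with a 95th percentile of 4.42. Probe sets differ in background, so this level is a guide for other probe sets and not a limit of detection. All 24 arrays of TwdlB, TwdlL, TwdlD and TwdlF lay at or under it, as did 23 of TwdlM, 19 of TwdlN, 16 of TwdlG, 3 of TwdlT and 0 of TwdlP and TwdlO. Below, an estimated fold against a group with arrays at or under 4.42 is given as "at least", with those arrays set to 4.42. Such a bound allows for dim arrays alone. It leaves out sampling error, so the interval of a difference can reach below it.

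TwdlT had by far the widest range of the 10. Its group means spanned 8.61 log2 units, which placed it 11th when the 11982 genes were ranked from the widest span down (rank 11). TwdlG spanned 1.91, TwdlN 1.55, TwdlD 0.63 and TwdlM 0.50. The other 5 spanned 0.17 to 0.34. In all, 1 of the 10 spanned 2 units or more and 7 spanned under 1 unit. Over all genes 9.96% spanned 2 units or more and 70.4% under 1, with a median span of 0.65. The share of the 10 with a narrow span was thus close to that of all genes.

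The TwdlT probe set was low in larval discs of both sexes. The 4 L3 female arrays read 4.52, 4.86, 5.60 and 6.40 (mean 5.34 ± 0.83, SD, n = 4), and the 4 L3 male arrays read 4.42, 5.57, 5.27 and 4.78 (5.01 ± 0.51). At P6 the female arrays read 13.10, 13.09, 12.79 and 12.96 (12.99 ± 0.14) and the male arrays 12.66, 13.08, 12.51 and 11.76 (12.50 ± 0.55). Every P6 array was above every L3 array by several units, and male replicate 4 was the lowest of the 8. At P20 the female arrays read 6.93, 6.23, 7.67 and 6.80 (6.91 ± 0.59) and the male arrays 4.38, 4.16, 4.57 and 4.40 (4.38 ± 0.17). The high level was gone in both sexes by then, and the lowest female array at P20 was above the highest male array.

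**Figure D1:**
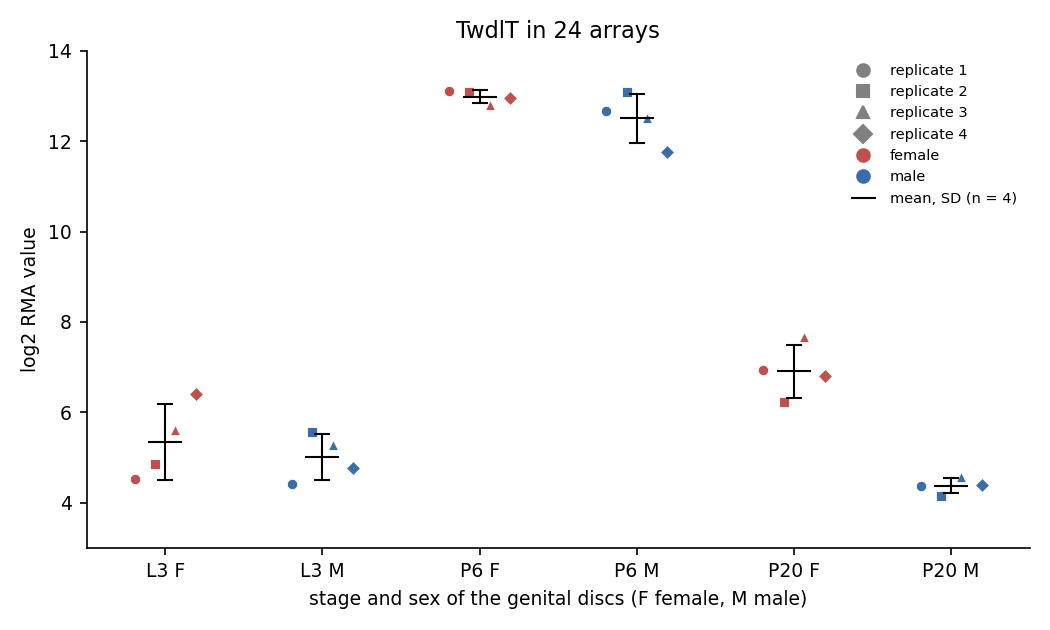
Log2 RMA value of TwdlT in each of the 24 arrays, by stage and sex (F female, M male). Each symbol is 1 array, shaped by replicate number, and the bars give the mean and SD of 4 arrays. The 8 P6 arrays sit between 11.76 and 13.10 and no other array is above 7.67.

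From L3 to P6, TwdlT rose by 7.64 ± 0.35 log2 units (SE) in females, a 200-fold rise in signal, and by 7.49 ± 0.35 in males, 180-fold (limma adjusted p = 6.29e-14 and 1.02e-13). In a bulk sample, more cells that express a gene and more RNA of it per cell cannot be told apart. From P6 to P20, TwdlT fell by 6.08 ± 0.35 in females (67.6-fold, adjusted p = 4.10e-12) and in males it fell by 8.13 ± 0.35 (at least 265-fold, 2.60e-14), with 3 of 4 P20 male arrays at or under the Y-linked level of 4.42. These 4 changes passed in every alternative analysis that was run. From L3 to P6, 14.6% of all genes rose and 21% fell in females, and 16.3% rose and 18.5% fell in males. Hemocyte markers fell over that interval in 5 of 7 cases in females and 6 of 7 in males. Muscle markers fell in 3 of 5 in each sex, and fat body markers rose in 1 of 3 in females and 2 of 3 in males. Testis markers rose in 1 of 7 cases in females and 7 of 7 in males. The part of these cells in the rise of TwdlT was not tested.

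The return of TwdlT was not to the same level in both sexes. Female discs at P20 stayed above female discs at L3 by 1.56 ± 0.35 (2.95-fold, limma adjusted p = 0.00113), although the highest L3 array (6.40) was above the lowest P20 array (6.23). Male discs at P20 were 0.63 ± 0.35 below L3, which did not pass (adjusted p = 0.159). Within P20, females were 2.53 ± 0.35 above males (95% interval 1.81 to 3.25, adjusted p = 5.23e-05), and this passed in every alternative. Since the male arrays lay near the Y-linked level, the estimated fold is given as at least 5.47, which leaves out the sampling error in that interval. At L3 and P6 the female minus male difference was 0.34 and 0.48, and neither passed (adjusted p = 0.999 and 0.726).

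The sex difference of TwdlT at P20 was larger than that at P6 by 2.05 ± 0.49 (limma interaction contrast, adjusted p = 0.0387), but this call was not firm. It was lost with the replicate number as a block (adjusted p = 0.0555), with each array centred on its median (adjusted p = 0.0619), and with each array centred on the median of the genes tested (2.01, 0.0939). It was also lost when any of 14 of the 16 P6 and P20 arrays was left out, with values down to 1.79 and an adjusted p up to 0.110. Leaving out P6 male replicate 4 or P20 female replicate 2 were the exceptions. A block for each replicate number within a stage kept it (0.0319).

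In the order of its group means TwdlT ran P6 female, P6 male, P20 female, L3 female, L3 male, P20 male. Only P6 male and P20 female, of the neighbours in that order, did not overlap in their arrays. The 3 genes whose profile over the 6 group means was closest to that of TwdlT, each profile centred on its own mean, were CG14397, CG17127 and Osi7. Their root mean square differences from it were 0.65, 0.68 and 0.71 log2 units. Osi7, of the Osiris family of insect-specific membrane proteins, had means of 5.00 and 4.69 at L3, 11.96 and 11.65 at P6 and 5.20 and 4.95 at P20, in females and males. CG14397 had 5.35 and 4.88, then 11.98 and 11.66, then 6.78 and 5.36, so that its P20 female mean, like that of TwdlT, lay above the male one. CG17127 had 5.28 and 5.21, then 12.71 and 12.50, then 5.77 and 5.53.

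TwdlN moved at another time and in 1 sex. In male discs at P20 its arrays read 4.94, 5.09, 4.99 and 5.58 (5.15), against 3.87, 3.47, 3.57 and 3.51 at P6 (3.60) and 3.80, 3.78, 3.75 and 4.33 at L3 (3.91). In female discs the arrays read 4.02, 4.09, 3.80 and 4.00 at L3, 3.82, 3.75, 3.71 and 3.93 at P6, and 3.80, 4.53, 4.24 and 4.06 at P20 (4.16). All 4 P20 male arrays were above all 20 other arrays, with no overlap.

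In males TwdlN rose from P6 to P20 by 1.55 ± 0.16 (limma adjusted p = 1.24e-07), and P20 was 1.24 ± 0.16 above L3 (3.79e-06). All P6 and L3 male arrays lay at or under the Y-linked level and all 4 P20 male arrays above it. Both estimated folds are thus given as at least 1.66. In females the P6 to P20 difference was 0.36 ± 0.16, which did not pass (adjusted p = 0.114). Without P20 female replicate 1, the lowest of that group, it was 0.48 and passed (0.0423). At P20 the female minus male difference of TwdlN was -0.99 ± 0.16 (at least 1.63-fold higher in males, adjusted p = 0.000473), in the direction opposite to that of TwdlT, with 3 of 4 female arrays at or under that level. This sex difference differed from that at P6 by -1.19 ± 0.23 (adjusted p = 0.00533), and unlike that of TwdlT the interaction passed in every alternative. Testis markers were also higher in males at P20, 3 of 7 passing, beside 1.65% of all genes. From P6 to P20 in males 1 of 7 fell, beside 12.6% of all genes, and the other 6 did not pass. The part of these markers in the TwdlN difference was not tested.

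TwdlG was highest at P6, as TwdlT was, over a far smaller range. Its L3 arrays read 3.51, 4.19, 4.18 and 4.09 in females and 4.06, 3.83, 4.17 and 4.28 in males. At P6 they read 5.18, 4.82, 4.35 and 4.79 in females (4.79 ± 0.34) and 5.59, 6.44, 5.46 and 4.48 in males (5.49 ± 0.80). At P20 they read 3.49, 3.80, 3.64 and 3.41 in females (3.58 ± 0.17) and 3.56, 3.51, 4.42 and 3.61 in males (3.77 ± 0.43). Within each sex the P6 arrays were all above those of L3 and P20, and P6 male replicates 2 and 4 were the far ends of a wide group.

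In males TwdlG rose from L3 to P6 by 1.40 ± 0.29 (at least 2.11-fold, limma adjusted p = 0.000646) and then fell by 1.72 ± 0.29 to P20 (at least 2.11-fold, 7.84e-05). In females it fell from P6 to P20 by 1.20 ± 0.29 (at least 1.31-fold, 0.00279). The Y-linked level was not passed by any L3 array, any P20 female array or P6 female replicate 3, and among P20 males by replicate 3 alone. The female rise from L3 to P6 was 0.79 ± 0.29 (at least 1.31-fold, 0.0345) and was fragile. It was lost with arrays centred on the median of the genes tested (0.71, 0.0898) and without L3 female replicate 1 (0.63, 0.104) or 4 (0.82, 0.0538). It was also lost without P6 female replicate 1 (0.66, 0.111), 2 (0.78, 0.0665) or 4 (0.79, 0.0626). The P6 female minus male difference was -0.71 ± 0.29 and did not pass (0.235). Without P6 male replicate 4, it was -1.04 and passed (0.0112).

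TwdlD, the gene of the founding mutant, read at or under the Y-linked level on every array, so no fold is given for it and its differences are those of a dim probe set. Its arrays read 3.31, 3.88, 3.50 and 3.55 in L3 females, 2.80, 2.94, 3.11 and 3.10 in P6 females and between 2.97 and 3.14 in P20 females. All 4 larval arrays were above the 8 later ones in that sex. In females its reading fell by 0.57 ± 0.13 from L3 to P6 (limma adjusted p = 0.00109), and the P20 minus L3 difference was -0.51 ± 0.13 (0.00272).

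Male L3 arrays of TwdlD read 3.17, 3.36, 3.40 and 3.29, those at P6 3.26, 3.14, 2.89 and 2.94, and those at P20 2.75, 2.91, 2.84 and 3.24, so that L3 and P20 overlapped. The P20 minus L3 difference in males was -0.37 ± 0.13 (limma adjusted p = 0.0242). It no longer passed with arrays centred on the median of the genes tested (0.0790) or with only the compared arrays in the fit (0.0695). The same held without L3 male replicate 2 (0.0554) or 3 (0.0673) and without P20 male replicate 1 (0.0874), 2 (0.0510) or 3 (0.0630).

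TwdlM, TwdlP, TwdlB, TwdlL, TwdlO and TwdlF passed in 0 of the 11 comparisons by limma, and 1 of their 66 tests had p below 0.05 before adjustment. Over the 24 arrays TwdlP read between 4.62 and 5.34, TwdlO between 4.61 and 5.66, TwdlB between 2.74 and 3.30, TwdlL between 3.23 and 4.12, and TwdlF between 2.76 and 3.52. TwdlM read between 3.50 and 4.27 on 23 arrays and 6.05 on the other, P6 male replicate 2. In the order of group means of these 6 genes every neighbouring pair of groups overlapped. TwdlP at P20 against P6 in females (0.33) passed when only the compared arrays were in the fit (0.0202), with an adjusted p of 0.0736 otherwise. TwdlF at P20 against P6 in males passed without P6 male replicate 4 (-0.43, 0.0218), against 0.201 with all arrays. No group mean of TwdlM, TwdlB, TwdlL or TwdlF was above the Y-linked level, so an absence of change in them says little. TwdlP and TwdlO read above it on all 24 arrays. Their lowest arrays (4.62 and 4.61) were still close to the highest Y-linked reading (4.53), so their flat readings are also of limited weight.

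**Figure D2:**
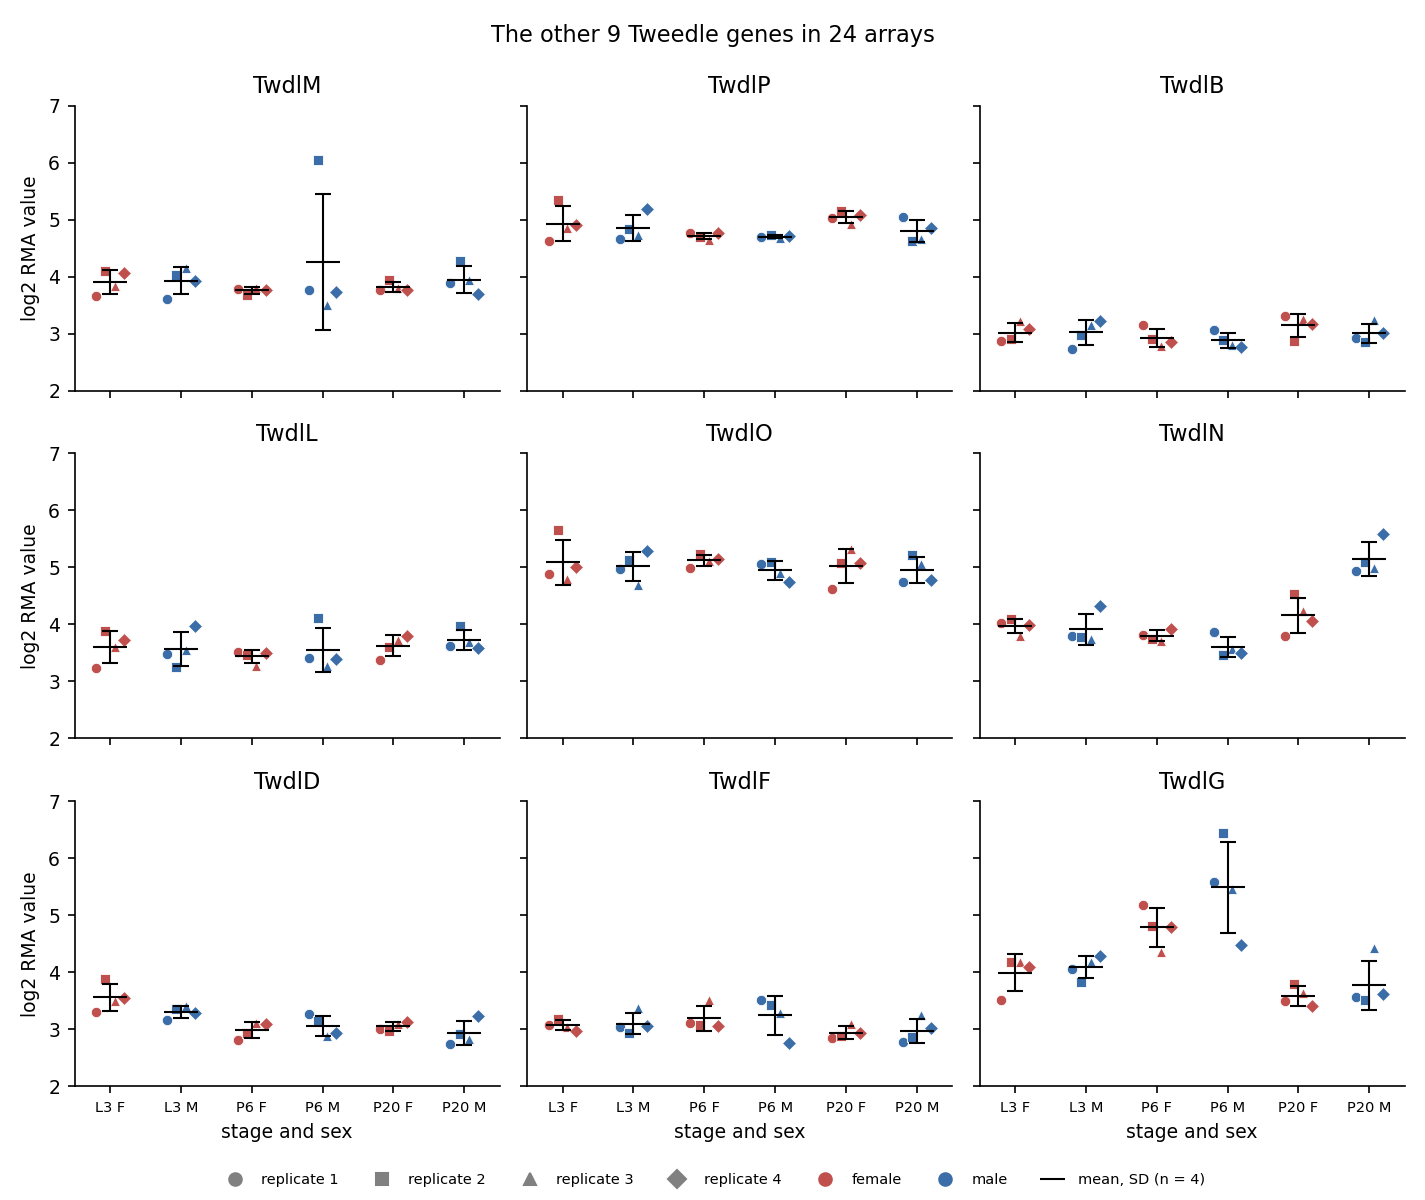
Log2 RMA value of the other 9 genes in each of the 24 arrays, on 1 axis range, with symbols by replicate and mean and SD of 4 arrays. TwdlN stands up at P20 in males (5.15), TwdlG at P6, and TwdlM on P6 male replicate 2 alone (6.05).

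Counted by comparison, the 10 genes gave few calls. From L3 to P6 in females 2 of 10 rose, TwdlT and TwdlG, and 1 fell, TwdlD, where 14.6% of all genes rose and 21% fell. In males 2 of 10 rose, the same 2 genes, and 0 fell, against 16.3% and 18.5% of all genes. The 8 male differences that did not pass lay between -0.31 and 0.33. From P6 to P20 in females 0 rose and 2 fell, TwdlT and TwdlG (14.2% and 12.1% of all genes), and in males 1 rose, TwdlN, and 2 fell, TwdlT and TwdlG (13.1% and 12.6%).

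Across the whole interval from L3 to P20, 1 of 10 was higher (TwdlT, against 17.7% of all genes) and 1 lower (TwdlD, 22.2%) in females, and 1 was higher (TwdlN, 17.8%) and 1 lower (TwdlD, 20.3%) in males. The medians of the 10 differences in these 6 comparisons ranged from -0.12 to 0.06, beside -0.09 to 0.04 for all genes. With 10 genes, these counts lie near the background shares.

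Between the sexes 0 of 10 passed at L3 and 0 at P6 by limma, where 0.985% and 4.83% of all genes did. Before adjustment, 0 and 1 of the 10 had p below 0.05 (TwdlG at P6), and no other tool was run. At P20, 1 of 10 was higher in females (TwdlT; 0.701% of all genes) and 1 higher in males (TwdlN; 1.65%), and the 8 others differed by -0.19 to 0.25. The arrays of the sexes did not overlap at P20 for 2 of the 10, the same 2, against 7.81% of all genes. The change of the sex difference passed for 0 of 10 from L3 to P6 (0.81% of all genes; 0 with p below 0.05 before adjustment) and for 2 of 10 from P6 to P20 (1.15%), TwdlT and TwdlN.

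**Figure D3:**
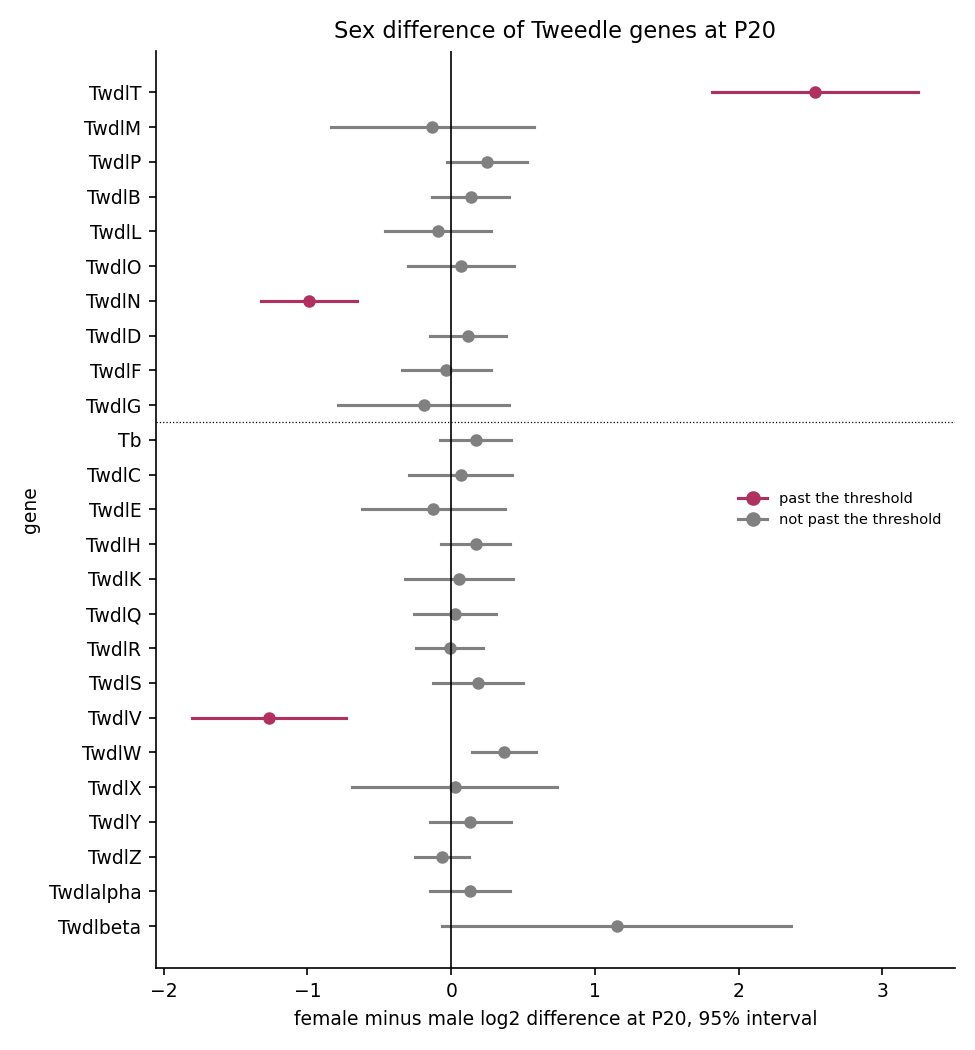
Female minus male log2 difference at P20 for the 10 genes (above the dotted line) and the other 15 Tweedle genes, with 95% intervals from the limma fit. TwdlT lies at 2.53, TwdlN at -0.99 and TwdlV at -1.27; the other 22 did not pass.

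All 10 genes lie on chromosome arm 3R, where 20 Tweedle genes have an entry in the Release 6 gene table. Of the 10, 7 stand in an unbroken run of 12 protein-coding genes, all Tweedle genes: TwdlM, TwdlP, TwdlB, TwdlL, TwdlO, TwdlK, TwdlJ, TwdlN, TwdlH, TwdlR, TwdlS and TwdlD. Of these 12, 11 were measured and 3 passed in 1 or more comparisons: TwdlN, TwdlH and TwdlD. TwdlN thus rose in P20 males within a run whose measured neighbours did not pass from P6 to P20 in males: TwdlK had a difference of -0.30 (adjusted p = 0.245), TwdlH 0.05 (0.803) and TwdlR 0.23 (0.143). TwdlJ, next to TwdlN, has no probe set of its own. Probe sequences were not used here, so binding of a neighbour's RNA to a probe set was not tested.

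TwdlF and TwdlG are adjacent, and of the pair TwdlG alone passed. At P6 against L3 TwdlF differed by 0.12 in females and 0.15 in males (adjusted p = 0.566 and 0.479) where TwdlG rose. CG14644, between TwdlG and TwdlV, rose in males by 0.44 (0.0190) and fell to P20 by 0.63 (0.00165). TwdlT lies outside both groups. Of the 2 genes on either side of it, CG6271, Nep5 and CG34292 were measured, and their P6 minus L3 differences lay between -0.21 and 0.26 with none past the threshold.

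The other 15 Tweedle genes held the family's other large change. TwdlE read 8.11 to 9.17 in L3 females and 7.88 to 9.45 in L3 males, then 12.55 to 13.15 over the 8 P6 arrays and 11.19 to 11.59 over the 8 P20 arrays. It rose at P6 by 4.47 ± 0.24 in females and 4.29 ± 0.24 in males (limma adjusted p = 1.18e-12 and 2.83e-12). It then fell by 1.61 and 1.41 (1.70e-05 and 9.85e-05), so that P20 was still 2.85 and 2.89 above L3. The P20 minus P6 difference of TwdlT, by contrast, was -6.08 and -8.13.

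In females 4 of the 15 rose from L3 to P6 (TwdlE, Twdlbeta, TwdlC and TwdlY) and 2 fell (TwdlH and TwdlW), and in males 4 rose (TwdlE, Twdlbeta, TwdlV and TwdlC) and 2 fell (TwdlX and TwdlH). Between P6 and P20, 0 rose and 3 fell in each sex: TwdlE, TwdlC and TwdlQ in females, and TwdlE, Twdlbeta and TwdlC in males. TwdlH, TwdlW and TwdlX had group means above the Y-linked level of 4.42 in 2 of the 6 groups, and TwdlQ in 1. Their falls are thus those of dim probe sets. Between the sexes TwdlC was higher in females at P6 by 0.76 ± 0.17 (limma adjusted p = 0.00938), where its arrays read 5.89 to 6.53 in females and 5.39 to 5.63 in males. TwdlV was higher in males at P20, with a female minus male difference of -1.27 ± 0.26 (0.00519) and arrays of 5.49 to 5.69 against 6.45 to 7.37. Both sex differences were without overlap, and both passed in every alternative. With only the compared arrays in the fit, TwdlV also passed at P6 (-0.84, 0.0127), against 0.0653 otherwise.

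Several of the smaller calls among the 15 rested on single arrays. For Twdlbeta, limma's adjusted p rose to 0.0576 in females (P6 against L3) without P6 female replicate 3. In males it rose to 0.0508 without L3 replicate 2 and to 0.0584 without P6 replicate 2, and for P20 against P6 to 0.0821, 0.0655 and 0.0611 without P6 replicates 2 and 3 and P20 replicate 4. Each of the last 3 omissions also ended the call of TwdlC in males from P6 to P20, which left 1 of the 15 genes in place of 3, TwdlE. TwdlC lost it as well without P20 male replicate 3 and with arrays centred on the median of the genes tested (0.147). The female calls of TwdlY, TwdlW and TwdlQ had adjusted p up to 0.140, 0.145 and 0.150 in the alternatives, and the male call of TwdlX 0.0806 with only the compared arrays in the fit. The calls of TwdlE and TwdlH from L3 to P6 were kept in every alternative.

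**Figure D4:**
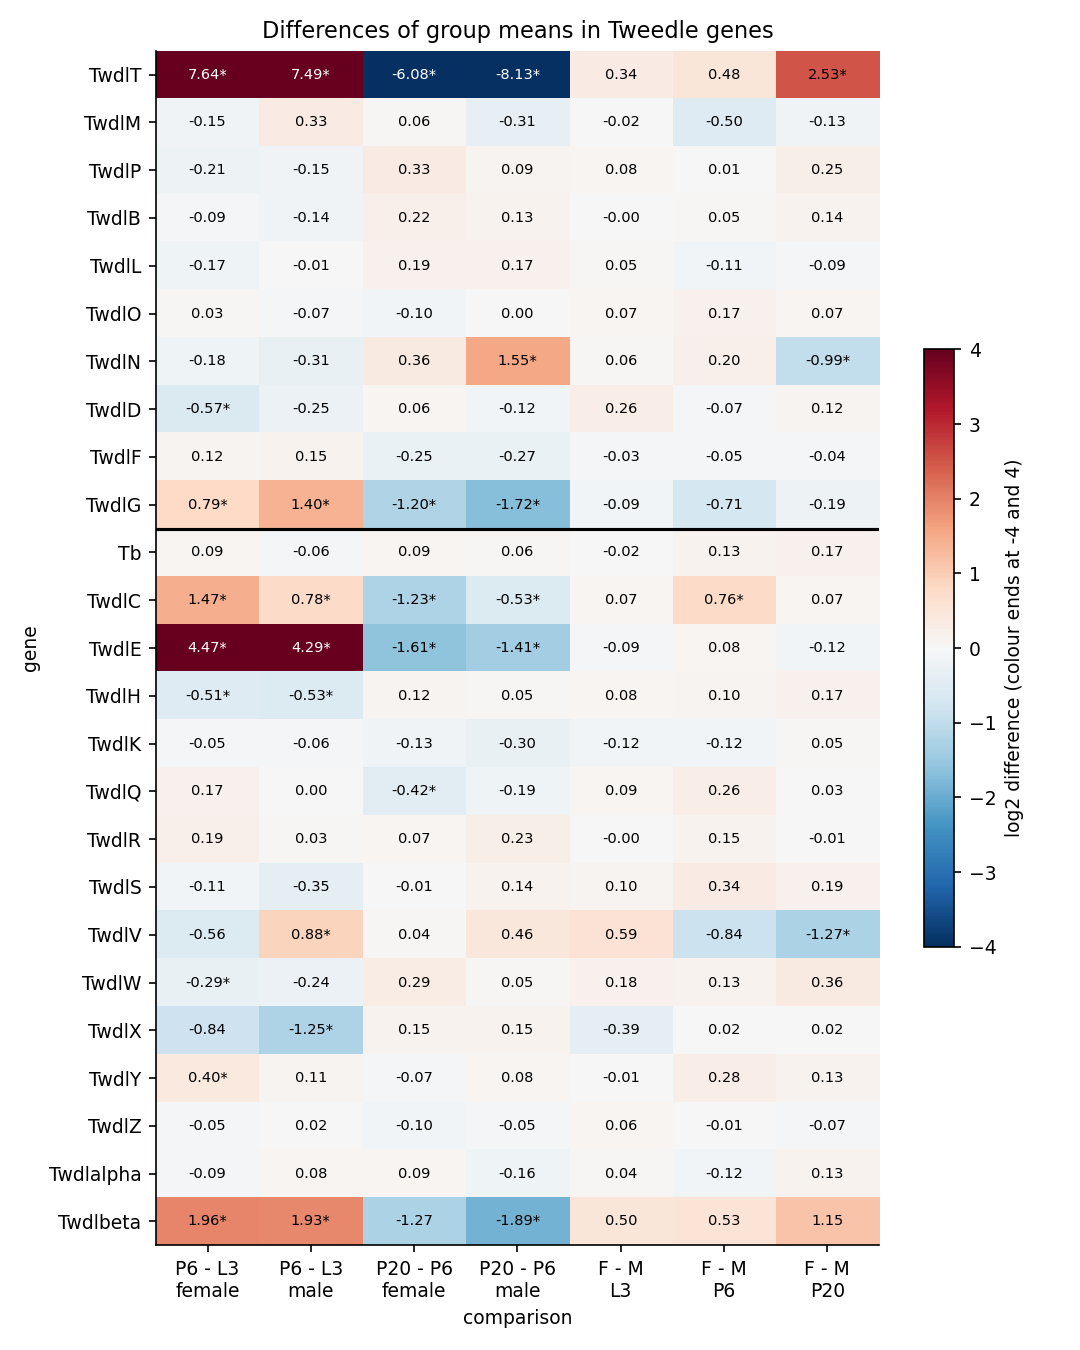
Differences of group means (log2) for the 10 genes (above the line) and the other 15 Tweedle genes, with an asterisk where limma's adjusted p was under 0.05. The colour scale ends at -4 and 4, and the printed values go from -8.13 to 7.64.

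Other genes of cuticle formation gave the setting at the same times. The shares of all genes that rose or fell in each comparison are those given above. Of 86 other cuticle protein genes measured, 23 rose and 15 fell from L3 to P6 in females, and 20 rose and 17 fell in males, with median differences of -0.04 and 0.11. The 4 with the smallest adjusted p in females all rose: Lcp65Ad (8.59), Edg78E (6.21), Vajk4 (4.72) and Cpr100A (5.82). From P6 to P20, 12 rose and 15 fell in females and 11 rose and 16 fell in males. Cpr72Ea rose by 9.21 in females and 9.22 in males as TwdlT fell, and Cpr97Ea rose by 4.22 and 5.12.

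At P20, 5 of these 86 genes were higher in females and 8 in males, where 0.701% and 1.65% of all genes were. Cpr62Bc (3.28) and Cpr66Cb (2.49) were higher in females, as TwdlT was. Cpr92F (-2.11) and Cpr66D (-3.46) were higher in males, as TwdlN was. Calls by sex at P20 thus ran in both directions, in the Tweedle genes and in the other cuticle protein genes.

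Most chitin genes, 12 of 19 in females and 11 of 19 in males, both rose at P6 and fell by P20, as TwdlT did. The share of all genes that did both was not counted. Of all genes, 14.6% in females and 16.3% in males rose from L3 to P6. From P6 to P20, 12.1% and 12.6% fell. Of 19 measured, 15 rose and 1 fell from L3 to P6 in females and 16 rose and 0 fell in males, with medians of 2.16 and 2.06 beside -0.09 and -0.04 for all genes. They included Cda5, a chitin deacetylase gene (4.94 and 4.76), verm, also a chitin deacetylase gene (3.82 and 3.81), and mmy, which makes the chitin precursor (2.34 and 2.44). From P6 to P20, 2 rose and 12 fell in females and 1 rose and 11 fell in males. The chitin deacetylase gene serp changed by -4.30 and -3.81, and obst-E, for a chitin-binding protein, by -6.42 and -6.15. By sex, 0 of 19 passed at P20 (limma; 3 had p below 0.05 before adjustment, and 1 passed with only the compared arrays in the fit).

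Of 7 tanning genes, which harden and colour the cuticle, 4 rose and 2 fell from L3 to P6 in females and 3 rose and 2 fell in males. At P20 against P6, 4 fell in females, and 1 rose and 2 fell in males. The 1 that rose was y (yellow, 1.01), which changed by -1.06 in females. At P20, y was higher in males, with a female minus male difference of -1.91 (limma adjusted p = 3.19e-07), the direction of TwdlN.

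Of 12 genes of ecdysone timing, 5 rose and 2 fell from L3 to P6 in females and 4 rose and 4 fell in males. From P6 to P20, 3 rose and 4 fell in females and 3 rose and 5 fell in males. The nuclear receptor gene ftz-f1, a mid-prepupal competence factor, rose at P6 by 4.52 and 4.18 and then changed by -3.03 and -2.99, so that P6 was its highest stage, as for TwdlT. Kr-h1, a juvenile hormone response gene, changed by -6.47 and -5.76 from L3 to P6. Eip93F, for an adult specifier, rose by 5.27 and 4.47 from P6 to P20. By sex, 0 of 12 passed at P20 (limma; 0 had p below 0.05 before adjustment).

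One array stood apart in cuticle genes. On P6 male replicate 2, 22 of all 111 cuticle protein genes (19.8%) were at least 1 log2 unit above each of the other 3 arrays of the group, while 105 of 11982 genes were (0.876%). Next was L3 female replicate 3 with 12 of 111 (10.8%), beside 1.04% of all genes. L3 male replicate 1 followed with 8 (7.21%), beside 3.42% of all genes, the largest such share of any array. None of the other 21 arrays had more than 4 cuticle protein genes. Among the 22 were TwdlM (6.05 against 3.77, 3.50 and 3.72) and TwdlK (3.97 against 2.95 for the next array). The widest gaps, named after their values were seen, were those of Vajk3 (3.22), Cpr72Eb (2.78), Cpr47Eb (2.40) and TwdlM (2.28).

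TwdlG and TwdlL were also highest on that array without reaching that gap (TwdlG 6.44 against 5.59 for the next, TwdlL 4.12 against 3.41). Without P6 male replicate 2, every call of the 10 genes in a comparison of P6 males was kept, except the TwdlT interaction given above (1.85, limma adjusted p = 0.0935).

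**Figure D5:**
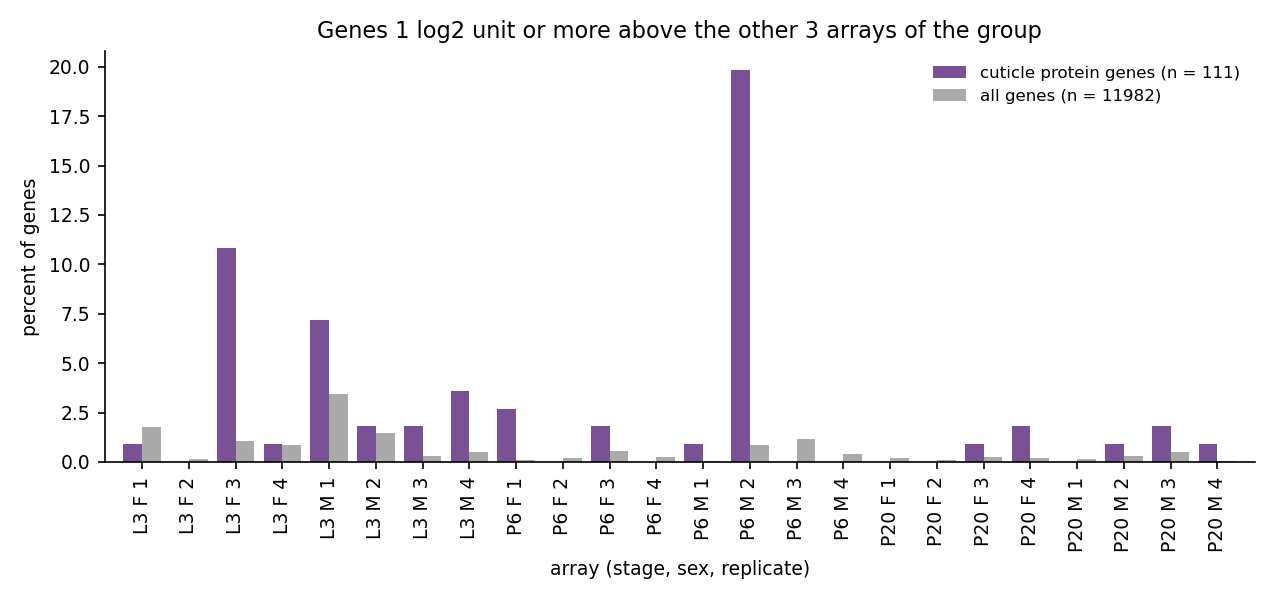
Percent of genes at least 1 log2 unit above each of the other 3 arrays of the same group, for all 111 cuticle protein genes (Tweedle genes included) and for all 11982 genes, by array. P6 male replicate 2 has 19.8% of cuticle protein genes and 0.876% of all genes.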

How the data were processed

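RNA from 24 genital disc samples (4 biological replicates of 2 sexes at 3 stages, 20 ng of total RNA per labelling, per the labels' protocols) was measured on 24 arrays. The deposited values are log2 summaries of each probe set, for which the authors used RMA, per the submitters' processing notes, with no version stated there. They were used as deposited. RMA usually adjusts background, normalises between arrays and summarises the probes of a set, which can compress differences at low signal. No detection calls were at hand; Y-linked genes on female arrays gave an indirect background level, added after the data were seen. With 4 arrays a group, precision is limited by their number.

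The table held 18952 probe sets, of which 183 were controls, 13647 had 1 gene, 402 several genes and 4720 none in the platform annotation. Single-gene probe sets were kept, and for the 1094 genes with several the one with the highest mean was used, leaving 11982 genes. A Release 6 gene table gave chromosome arms and gene order; coordinates were left out because no source names the build of the platform annotation.

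A model of 6 group means was fitted to all arrays with limma 3.58.1 in R 4.3.3 (18 residual degrees of freedom), with 9 differences between groups and 2 interaction contrasts. P-values are two-sided and adjusted over all 11982 genes by Benjamini and Hochberg, with a threshold of 0.05. The step was also run on simulated data with independent noise and planted changes. That setting is simpler than these data, so the run does not vouch for the calls here. Folds are 2 raised to the log2 difference. The labels give no batch.

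The 10 genes and the gene lists were chosen with earlier results of these data known. Named genes were the 10; the other Tweedle genes past the threshold; the 3 genes with the closest profile to a member spanning 2 log2 units or more; and up to 4 members of each list with the smallest adjusted p. Apart from the Y-linked level, levels of different probe sets were not compared.

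Same-numbered P20 female and male arrays deviated together in 4 of 4 pairs (correlations of 0.11 to 0.42 over all genes). L3 female and male arrays did so in 3 of 4 pairs (0.07 to 0.68), and no other pair of groups had more. The main fit used no pairing, which entered only through replicate blocks as alternatives. Alternatives were array centring, a trended robust prior, only the compared arrays, a floor of 5 on the highest group mean, averaging all probe sets of a gene, replicate blocks, and leaving out each array. The centring on the genes tested and the block for each number within a stage were added after the data were seen.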

Additional observations from a re-analysis of the deposited data

Results flagged for a closer look

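Of 60 groups of 4 arrays (10 genes in 6 groups), 6 held 1 array far from the other 3, and chance gives about 1 in 20. P6 male replicate 2 was such an array for TwdlM, at 6.05 with the nearest at 3.77, and for TwdlL, at 4.12 with the nearest at 3.41. TwdlN was at 4.33 in L3 male replicate 4 with the nearest at 3.80. TwdlF was at 3.52 in P6 female replicate 3 with the nearest at 3.12. TwdlG was at 3.51 in L3 female replicate 1, below the nearest at 4.09, and at 4.42 in P20 male replicate 3 with the nearest at 3.61.

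The difference between the sexes changed from P6 to P20 for 2 genes by the limma interaction contrast: TwdlT (2.05, adjusted p = 0.0387, lost in 17 of 24 alternatives) and TwdlN (-1.19, adjusted p = 0.00533, kept in 24 of 24).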

How the results depend on the processing

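Of 18 calls of the 10 genes, 15 were kept in every alternative that held the gene (14 to 24 per call). The other 3 were lost in 1 or more: TwdlD in males (P20 against L3), TwdlG in females (P6 against L3) and the TwdlT interaction. TwdlD was left out by the floor of 5, so its calls were not tested there. The female P6 against L3 count was 2 to 3 over the alternatives. None reversed, and 4 other differences passed in 1 or more. With the floor of 5, which left 8221 genes and 5 of the 10, the female P20 against L3 count was 1 in place of 2. The male P20 against L3 count was 1 in place of 2 with that floor, with arrays centred on the median of the genes tested and with only the compared arrays, and 1 to 2 on leaving out single arrays. The count for the change of the sex difference from P6 to P20 was 1 in place of 2 with either centring and with the replicate block, and 1 to 2 on leaving out single arrays. The count by sex at P6 was 0 to 1 on leaving out single arrays. For the other Tweedle, other cuticle protein, chitin, tanning and ecdysone timing genes, 25 counts were followed through the alternatives. They were those from L3 to P6, from P6 to P20 and by sex at P20, and 23 stayed within 1.5 times. The count of other Tweedle genes by sex at P6 was 1 to 2. Counts of cell type markers were not rerun. Beyond the TwdlT interaction, the replicate block changed no call of the 10 genes. Centring on the genes tested shifted all genes by up to 0.13 (males, P6 against L3), and other centring by up to 0.05. Each gene has 1 probe set, so testing probe sets singly was not run. Causes were not tested. Against the Y-linked level of 4.42, 5 of the 10 genes had no group mean above it (TwdlM, TwdlB, TwdlL, TwdlD and TwdlF), which limits what their differences and lack of calls can show.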
